A study of Mus musculus with 9 samples.

Results

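The collagen genes were followed while 3T3-L1 preadipocytes, a cell line from mouse embryo that resembles fibroblasts, turned into adipocytes filled with lipid droplets. Members were all genes whose symbol has the form Col, a number, the letter a and a number. This gave 45 of the 19094 genes listed in the 9 samples. Of these, 44 encode collagen chains, while Col4a3bp, now named Cert1, encodes a ceramide transfer protein and was left out of all counts of chains. On days 0, 4 and 8, Col4a3bp stood at 9.46 ± 0.69, 9.997 ± 0.710 and 7.83 ± 0.34 FPKM (mean ± SD over 3 samples), where FPKM is a read count scaled to gene length and library depth. The 44 chains fall into 11 fibrillar, 6 basement membrane, 6 beaded filament, 9 fibril-associated, 4 transmembrane, 4 network and anchoring and 2 multiplexin chains, with Col26a1 and Col28a1 in no larger class.

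RNA was sequenced from 3 samples per stage, and all 9 samples are the same unmodified line as far as the labels say. Day 0 cells were confluent preadipocytes that had not yet received the inducers. Day 4 cells had been given dexamethasone, IBMX and insulin in induction medium and then insulin alone in maintenance medium, and day 8 cells had spent a further 4 days with insulin. Day 4 against day 0 is called the early phase, day 8 against day 4 the late phase, and day 8 against day 0 the whole process. The early and late phases share the day 4 samples, so their values are given side by side and are not independent. Cells were pooled per stage before extraction, and nothing in the labels says that the 3 samples of a day were separate cultures, so p-values measure only the spread between these samples, which may be technical. The depth of a sample lay between 18216114 and 20452144 expected counts.

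The labels call all 9 samples adipocytes. The summed level of 8 adipocyte markers, led by the fatty acid carrier Fabp4, was 139.8 ± 3.2, 7045 ± 1257 and 9155 ± 442 FPKM on the 3 days (SD, n = 3), and the adipocyte hormone gene Adipoq stood at 0.503 FPKM at day 0. This defining marker was thus low, though not at 0, in the day 0 samples. The extraction text of the labels names a tissue, "DRG", rather than the cell line. The 10 sensory neuron markers in the list, led by Tubb3, summed to between 0.23 and 0.86 FPKM in every sample, and none of them had a mean of 1 FPKM. Summed FPKM of the 5 endothelial markers (led by Vwf) was at most 1.08, and that of the 6 macrophage markers (led by Cd14) and the 5 Schwann cell markers (led by S100b) lay between 3.71 and 8.96 in every sample.

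Collagens are secreted proteins of the extracellular matrix whose chains carry long glycine-rich repeats and wind around each other into a rope-like helix. Types I, III, V and XI assemble into fibrils, type IV forms the sheet-like network of basement membranes, and type VI forms beaded microfibrils that lie between the fibrils and the cell. A preadipocyte sits in a fibroblast-type matrix, whereas a mature adipocyte is wrapped in a basement membrane, and type VI is known as an abundant collagen of adipose tissue. Fibril-associated chains attach to the surface of fibrils, transmembrane chains are anchored in the cell membrane, and multiplexins carry a cleavable end related to endostatin.

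Collagen transcripts took a larger share of the library at each later stage. They made up 3.69, 3.32 and 3.63% of all expected counts in the day 0 samples, 4.78, 4.65 and 4.37% at day 4 and 5.71, 5.76 and 5.91% at day 8, with no overlap between days. The fibrillar chains Col1a1, Col1a2 and Col3a1 alone took 2.34 ± 0.13, 2.02 ± 0.10 and 3.75 ± 0.04% on the 3 days. All other chains together took 1.203 ± 0.061, 2.59 ± 0.12 and 2.04 ± 0.08%. The early increase of the collagen share lay in the other chains and the late increase in these fibrillar chains. In FPKM, fibrillar chains held 72.3 ± 0.3, 48.9 ± 0.3 and 69.5 ± 0.6% of the summed collagen level on days 0, 4 and 8. Basement membrane chains held 7.40 ± 0.16, 17.3 ± 0.1 and 8.25 ± 0.28%, and beaded filament chains 18.1 ± 0.02, 32.7 ± 0.3 and 21.2 ± 0.3% (SD, n = 3). These shares depend on the other classes. Mean summed FPKM on the 3 days was 4525, 3963 and 7147 for fibrillar chains. It was 462.9, 1404 and 848.7 for basement membrane chains and 1134, 2653 and 2177 for beaded filament chains, so both stayed above day 0 at day 8. In these bulk samples, a change in the number of cells of a type and a change in the RNA per cell cannot be told apart.

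**Figure D1:**
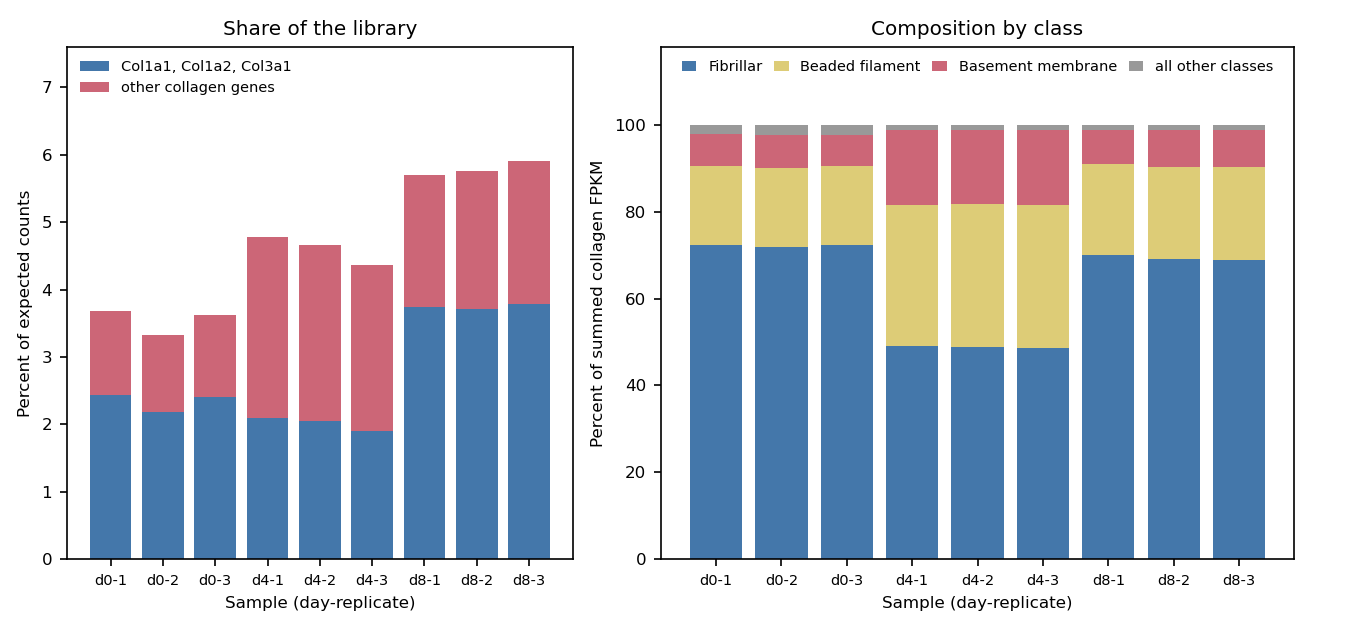
Collagen share of each sample. Left, percent of all expected counts (y axis) per sample (x axis, day and replicate), stacked as Col1a1, Col1a2 and Col3a1 (bottom) and all other collagen genes (top). Right, percent of the summed collagen FPKM held by each class. The stacked total is 3.32 to 3.69% at day 0 and 5.71 to 5.91% at day 8, and the fibrillar share dips to 48.6 to 49.1% in the day 4 samples.

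Of the 44 chains, 29 passed the filter on low counts and entered edgeR's quasi-likelihood test, which covered 13154 genes. In the early phase, 10 chains were upregulated and 7 downregulated at an adjusted p under 0.05 (Benjamini-Hochberg over all genes tested) and more than 2-fold. Among all genes tested, 9.77% were upregulated and 7.98% downregulated by the same rule. In the late phase, 5 chains were upregulated and 4 downregulated, against 4.24% and 2.81% of all genes. Over the whole process, 8 were upregulated and 6 downregulated, against 10.3% and 7.7%. A gene is said to have risen or fallen at an adjusted p under 0.05 whatever its fold. By that wider rule, 14 chains rose and 12 fell in the early phase (35.5% and 33.7% of all genes), 13 and 12 in the late phase (22.5% and 22.7%) and 15 and 9 over the whole process (34.8% and 36.2%). Col4a3, Col4a6 and Col14a1 passed the filter on 1 day only, so a difference in them was partly set by the filter, and these counts are descriptions. The median log2 fold change of the 29 chains was 0.36 in the early phase, 0.12 in the late phase and 0.57 over the whole process, beside 0.02, -0.01 and -0.02 for all genes tested. Summed FPKM of the 5 myofibroblast and smooth muscle markers, led by the actin gene Acta2, was 320.9 ± 38.2, 57.7 ± 11.8 and 95.2 ± 7.8 on days 0, 4 and 8. Acta2 made up most of that sum and fell in the early phase, as did Tagln, whereas the smooth muscle myosin Myh11 rose early from 0.167 to 1.18 FPKM and Des rose over the whole process from 3.74 to 8.23 FPKM. That of the 7 preadipocyte markers, led by Vim, was 3899 ± 120, 2588 ± 109 and 2243 ± 63, mostly Vim and Dlk1. Its members did not all follow the sum, since Pdgfra rose in the early phase (log2 fold change 0.84, edgeR adjusted p = 4.3e-10), Dlk1, Pdgfrb and Thy1 fell early and rose late, and Thy1 had a whole-process log2 fold change of 0.01 (adjusted p = 0.851). The part of either set of cells in the collagen changes was not tested.

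**Figure D2:**
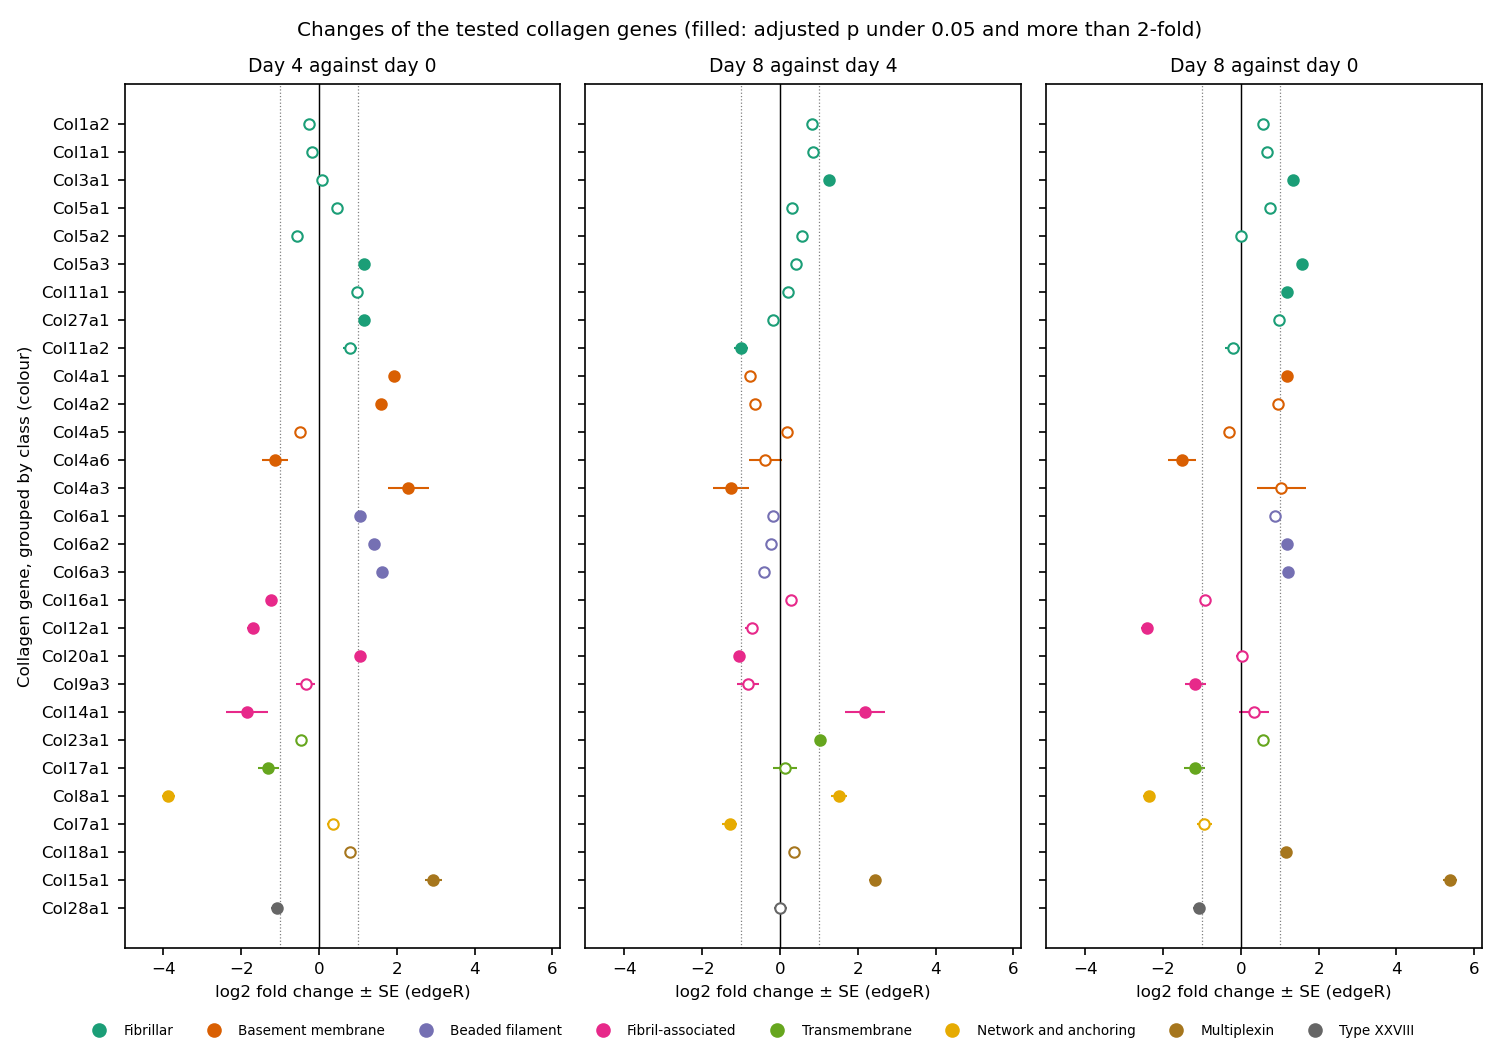
Changes of the 29 tested collagen genes. Each point is a log2 fold change from edgeR with its standard error (x axis) for a gene (y axis, coloured by class) in the early phase, the late phase and the whole process; filled points passed an adjusted p under 0.05 and 2-fold, and dotted lines mark 2-fold. Col8a1 lies farthest to the left in the early phase at -3.87 and Col15a1 farthest to the right over the whole process at 5.37.

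Of the 11 fibrillar genes, 9 were tested, of which 2 were upregulated in the early phase (9.77% of all genes), 1 was upregulated and 1 downregulated in the late phase (4.24% and 2.81%) and 3 were upregulated from day 0 to day 8 (10.3%). Those for types I and III were the most abundant fibrillar genes on every day and rose in the late phase. Col1a2, which encodes the second type of chain of collagen I, had 1900, 1726 and 1877 FPKM at day 0, 1568, 1497 and 1363 at day 4, and 2538, 2473 and 2525 at day 8. By mean FPKM it ranked 14, 16 and 7 among all genes on the 3 days. Day 4 samples were lowest and day 8 samples highest, without overlap. The early log2 fold change was -0.25 ± 0.06 (SE, edgeR adjusted p = 0.00161) and the late one 0.81 ± 0.06 (adjusted p = 1.9e-08), both under 2-fold. Col1a1, its partner chain, had 1545, 1498 and 1576 FPKM at day 0, 1321, 1345 and 1233 at day 4, and 2281, 2249 and 2279.95 at day 8, again with no overlap between days. It ranked 21, 24 and 8, and the log2 fold changes of the early and late phases were -0.18 ± 0.05 and 0.85 ± 0.05 (edgeR adjusted p = 0.00552 and 1.7e-09).

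Col3a1, which forms collagen III and mixes with type I fibrils, had 906.1, 676.9 and 835.5 FPKM at day 0, 838.4, 801.6 and 797.6 at day 4, and 1847, 1884 and 1943 at day 8. The day 0 and day 4 samples overlapped, and all day 8 samples stood above both. In the early phase its log2 fold change was 0.08 ± 0.08 (edgeR adjusted p = 0.407). In the late phase it rose 2.4-fold (log2 fold change 1.26 ± 0.08, adjusted p = 3.7e-09), and its rank among all genes moved from 67 at day 4 to 14 at day 8. It was the fibrillar chain that passed the 2-fold rule upwards in the late phase.

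The type V and XI chains, which sit inside type I fibrils and set their width, rose in the early phase except for Col5a2, which fell. Of all genes tested, 35.5% rose and 33.7% fell in that phase. Col5a3 had 25.7, 21.6 and 24.2 FPKM at day 0, 51.0, 51.0 and 50.8 at day 4, and 61.5, 66.7 and 69.5 at day 8, rising between all stages without overlap. The early log2 fold change was 1.16 ± 0.06 (edgeR adjusted p = 1.3e-10) and that of the whole process 1.58 ± 0.07 (adjusted p = 3.1e-12). Col5a1 went from 144.8 ± 13.1 FPKM to 189.1 ± 10.3 and 226.5 ± 9.7 on days 0, 4 and 8, whereas Col5a2 went from 159.9 ± 9.5 to 103.6 ± 8.0 and back to 149.4 ± 3.0 (n = 3). Early log2 fold changes were 0.45 ± 0.07 for Col5a1 and -0.56 ± 0.06 for Col5a2 (edgeR adjusted p = 1.8e-05 and 5.1e-07). Col11a1 rose early by 0.97 on the log2 scale (edgeR adjusted p = 2.5e-07) and went from 11.3 ± 1.4 FPKM at day 0 to 23.8 ± 0.8 at day 8 (log2 fold change 1.19 ± 0.10, edgeR adjusted p = 2e-08). Col27a1, the chain of collagen XXVII, rose from 3.81 ± 0.20 FPKM at day 0 to 8.09 ± 0.22 at day 4 (1.15 ± 0.06 on the log2 scale, edgeR adjusted p = 3.2e-11). Col11a2 stood at 1.253 ± 0.366, 2.11 ± 0.32 and 1.01 ± 0.19 FPKM and rose early by 0.80 on the log2 scale (edgeR adjusted p = 0.00066). Its late log2 fold change of -1.01 ± 0.18 (edgeR adjusted p = 0.00024) no longer passed 2-fold without day 4 replicate 2 (-0.98), day 4 replicate 3 (-0.90) or day 8 replicate 2 (-0.87), nor with RLE factors (-0.99). The cartilage chain Col2a1 reached at most 0.12 FPKM. Summed FPKM of the 6 chondrocyte markers was 59.6 ± 2.5, 28.8 ± 2.1 and 19.8 ± 1.0 on the 3 days and was almost all Sox9, with the cartilage proteoglycan Acan at a mean of 0 on days 4 and 8, while Comp rose early from 0.597 to 1.68 FPKM (log2 fold change 1.55, edgeR adjusted p = 3.5e-06). That of the 6 osteoblast markers, led by Runx2, was 19.7 ± 1.5, 11.3 ± 0.8 and 21.0 ± 0.4, within which Runx2 fell early (log2 fold change -0.76) and rose late (0.68), while Alpl rose in both phases from 0.0567 to 0.777 and 3.64 FPKM.

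The 150 bases before the annotated start are shown for Col1a2 and Col3a1, abundant fibrillar genes of collagen I and III, and for Col15a1, the chain with the largest change. They are RefSeq sequences of build GRCm38.p6 on the + strand: chr6:4505468-4505617, chr1:45311388-45311537 and chr4:47207862-47208011. Capitals mark matches, on either strand, to the letters CCAAT of the CCAAT box, to the letters GGGCGG of the GC box and to the letters TATAAA of the TATA box.
Col1a2: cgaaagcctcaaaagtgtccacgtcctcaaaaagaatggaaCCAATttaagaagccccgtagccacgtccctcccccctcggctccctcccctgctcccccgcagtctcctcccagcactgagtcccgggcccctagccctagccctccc
Col3a1: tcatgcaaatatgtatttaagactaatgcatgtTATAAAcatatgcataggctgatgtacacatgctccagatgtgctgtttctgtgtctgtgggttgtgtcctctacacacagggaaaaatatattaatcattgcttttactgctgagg
Col15a1: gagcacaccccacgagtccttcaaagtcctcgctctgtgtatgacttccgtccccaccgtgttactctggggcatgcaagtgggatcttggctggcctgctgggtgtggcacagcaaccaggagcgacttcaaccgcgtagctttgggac
The CCAAT match of Col1a2 begins 109 bases before the start and the TATAAA match of Col3a1 begins 117 bases before it, while the Col15a1 window holds none of these letters. In the 250 bases before the start, CCAAT was found in 13 of 38 collagen windows (34.2%) and in 33.8% of the 32851 windows of all genes. GGGCGG was found in 22 of the 38 (57.9%) against 32.7% of all windows, and TATAAA in 5 (13.2%) against 12.4%. The 38 windows belong to 35 of the collagen genes, some of which have more than 1 start, and a match describes letters only.

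Of the basement membrane genes of type IV, 5 of 6 were tested, and 3 were upregulated and 1 downregulated in the early phase, beside 9.77% and 7.98% of all genes. Of these 4 calls, Col4a3 and Col4a6 rest on few counts and passed the filter on 1 day only. The main chains Col4a1 and Col4a2 rose and partly fell back, whereas Col4a5 fell. Col4a1, the main chain of type IV, had 238.8, 224.6 and 233.4 FPKM at day 0, 881.1, 849.3 and 818.0 at day 4, and 457.1, 492.7 and 505.3 at day 8. The 3 days did not overlap. It rose 3.83-fold in the early phase (log2 fold change 1.94 ± 0.06, edgeR adjusted p = 5e-14), and its late log2 fold change was -0.76 ± 0.06 (adjusted p = 1.5e-08), so that at day 8 it was still 2.26-fold above day 0. Col4a2, which joins Col4a1 in the common type IV molecule, had 188.7, 172.8 and 181.0 FPKM at day 0, 544.3, 528.9 and 489.7 at day 4, and 310.2, 328.9 and 340.4 at day 8. It too peaked at day 4 without overlap, at 3.02-fold in the early phase (log2 fold change 1.59 ± 0.06, edgeR adjusted p = 9.8e-13) and -0.63 ± 0.06 on the log2 scale in the late phase (adjusted p = 2.5e-07). Over the whole process its log2 fold change was 0.96 ± 0.06, just under 2-fold, and 1.01 without day 8 replicate 1.

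Col4a5, a type IV chain found in fewer basement membranes, went from 51.7, 46.2 and 50.9 FPKM at day 0 to 37.2, 33.0 and 31.5 at day 4 and 36.6, 38.8 and 35.8 at day 8. All day 0 samples were above the rest, and day 4 and day 8 overlapped. Its early log2 fold change was -0.49 ± 0.06 (edgeR adjusted p = 4.2e-06). Col4a6 had 23, 23 and 24 expected counts at day 0, 10, 13 and 8 at day 4, and 6, 13 and 4 at day 8, with log2 fold changes of -1.13 ± 0.34 for the early phase and -1.51 ± 0.37 for the whole process (edgeR adjusted p = 0.00814 and 0.00156). It passed the filter through its day 0 samples, where it was high. The early call was lost without day 4 replicate 3, at -0.98, and the whole-process value was -2.11 without day 8 replicate 2. Col4a3 had 2, 2 and 3 expected counts at day 0, 12, 13 and 10 at day 4, and 8, 4 and 2 at day 8. All its day 0 counts and that of day 8 replicate 3 were at or below the floor of 3 counts per sample. No fold is therefore given, although Col4a3 passed the test upwards in the early and downwards in the late phase. Its late call was lost when any of 4 samples was left out, at edgeR adjusted p = 0.071 and 0.094 without day 4 replicate 1 or 2 and 0.0979 and 0.149 without day 8 replicate 2 or 3.

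Of the 6 type VI genes, 3 were tested, and these 3 were all upregulated in the early phase, beside 9.77% of all genes. Col6a1 had 554.6, 501.1 and 548.2 FPKM at day 0, 1072, 1073 and 1011 at day 4, and 877.4, 897.5 and 934.0 at day 8. Col6a2 had 439.0, 390.5 and 425.6 FPKM at day 0, 1069, 1094 and 1033 at day 4, and 865.0, 869.0 and 912.5 at day 8. Col6a3, the largest of the chains, had 186.8, 170.8 and 184.6 FPKM at day 0, 575.0, 530.3 and 499.8 at day 4, and 370.4, 398.8 and 405.2 at day 8. In each of the 3 genes, day 0 was lowest and day 4 highest, with no overlap between days. Absence of overlap was common among the 29 tested chains. It held for 26 between days 0 and 4, 24 between days 4 and 8 and 24 between days 0 and 8. The share of all genes tested without overlap was not counted, so these counts cannot be read as a trait of collagen genes. Early folds were 2.06 for Col6a1, 2.67 for Col6a2 and 3.05 for Col6a3, with log2 fold changes of 1.04, 1.42 and 1.61 and a standard error of 0.06 each (edgeR adjusted p = 7.9e-11, 2.1e-12 and 1.9e-12). Late log2 fold changes were -0.18, -0.23 and -0.40 (edgeR adjusted p = 0.0168, 0.00328 and 6.4e-05). At day 8, Col6a2 and Col6a3 were 2.28-fold and 2.3-fold above day 0, and Col6a1 1.83-fold. The early call of Col6a1 lies close to the threshold, since its log2 fold change was 0.994 without day 0 replicate 2, 0.994 with upper-quartile factors and 0.978 with library size alone. Col6a4, Col6a5 and Col6a6, which can take the place of Col6a3, had at most 5 counts in any sample.

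**Figure D3:**
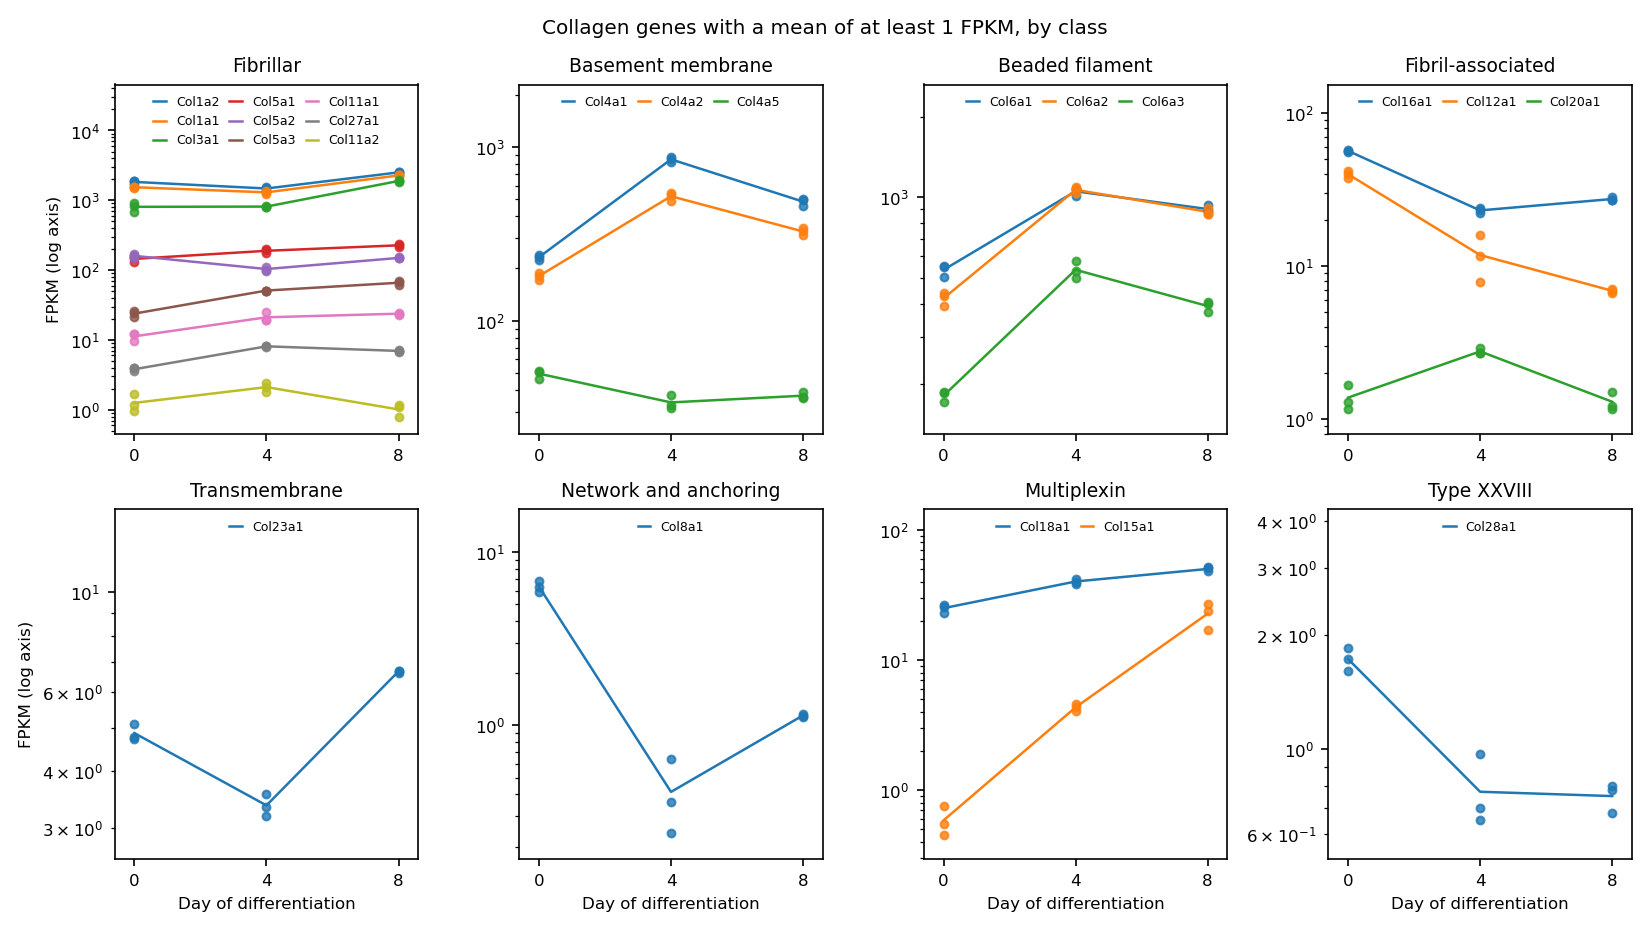
Levels of the collagen genes with a mean of at least 1 FPKM. FPKM on a log axis (y) is plotted against the day of differentiation (x) in a panel per class; points are samples and lines join day means, and the panels have different ranges. Col4a1 and Col6a1 peak at day 4 at means of 849.5 and 1052 FPKM, Col3a1 climbs from 812.5 at day 4 to 1891 at day 8, and Col12a1 descends to 6.88.

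Both multiplexins, proteoglycan-like collagens of basement membrane zones, rose in both phases, Col15a1 with more than 2-fold in each. Of all genes tested, 35.5% rose in the early phase and 22.5% in the late phase, and 9.77% and 4.24% were upregulated. Col15a1 had 0.55, 0.45 and 0.76 FPKM at day 0, 4.03, 4.58 and 4.37 at day 4, and 17.0, 23.9 and 27.1 at day 8. All samples of a later day were above all samples of an earlier one. It rose 7.67-fold in the early phase (log2 fold change 2.94 ± 0.22, edgeR adjusted p = 3.9e-09), 5.41-fold in the late phase (2.44 ± 0.14, adjusted p = 1e-09) and 41.5-fold over the whole process (5.37 ± 0.19, adjusted p = 4.2e-13). No other of the 29 tested chains had a whole-process change of this size. Col18a1, whose end piece is endostatin, had 25.6, 23.1 and 26.3 FPKM at day 0, 38.4, 41.9 and 39.8 at day 4, and 48.0, 50.5 and 51.4 at day 8, also without overlap. The log2 fold changes of the early phase, the late phase and the whole process were 0.79, 0.37 and 1.16 with a standard error of 0.06 each (edgeR adjusted p = 6e-09, 7.5e-05 and 4.7e-11). At day 8, Col15a1 was still the lower of the pair in FPKM.

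Of the 9 fibril-associated genes, 5 were tested, and in the early phase Col16a1, Col12a1 and Col14a1 were downregulated and Col20a1 upregulated, beside 7.98% and 9.77% of all genes. Col14a1 passed the filter on 1 day only. Col16a1, a minor fibril-associated collagen, had 55.9, 56.2 and 57.3 FPKM at day 0, 23.8, 23.2 and 22.2 at day 4, and 28.4, 26.9 and 26.8 at day 8. It was the most abundant chain of the class on all days, and day 4 was lowest without overlap. It was 2.34-fold lower at day 4 than at day 0 (log2 fold change -1.22 ± 0.05, edgeR adjusted p = 9.3e-13), with a late change of 0.29 ± 0.05 (adjusted p = 7.7e-05). Col12a1, which links type I fibrils with other matrix proteins, had 37.8, 39.6 and 41.9 FPKM at day 0, 15.9, 11.6 and 7.90 at day 4, and 6.90, 6.64 and 7.11 at day 8. The day 4 samples were spread widely, though above all day 8 samples. The early log2 fold change was -1.69 ± 0.15 and that of the whole process -2.42 ± 0.16, a level 5.34-fold lower (edgeR adjusted p = 6.1e-08 and 1.1e-09). In the same 3 day 4 samples the summed adipocyte markers were 5851, 6928 and 8356 FPKM and the summed myofibroblast markers 67.7, 60.7 and 44.8, and their part in this spread was not tested.

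Col20a1 had 1.68, 1.16 and 1.30 FPKM at day 0, 2.72, 2.68 and 2.90 at day 4, and 1.22, 1.17 and 1.50 at day 8. Day 4 stood apart, and days 0 and 8 overlapped. Log2 fold changes were 1.07 ± 0.13 in the early and -1.05 ± 0.14 in the late phase (edgeR adjusted p = 3e-06 and 1.1e-05), and the early one was 0.95 without day 0 replicate 2, while the late one was -0.996 without day 8 replicate 1 and -0.98 without day 8 replicate 2, both under 2-fold. Col14a1 had 20, 5 and 17 expected counts at day 0, 5, 5 and 1 at day 4, and 17, 16 and 17 at day 8. It was called downwards in the early and upwards in the late phase, on counts too low for a stable fold, and days 0 and 4 touched at 5 counts. Col9a3, a chain of cartilage collagen IX, went from 0.58 ± 0.05 to 0.24 ± 0.07 FPKM over the whole process (log2 fold change -1.17 ± 0.27, edgeR adjusted p = 0.00106), which was -0.94 without day 8 replicate 3.

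Col8a1, a short-chain collagen that forms hexagonal networks, showed the steepest early fall of all 29 tested chains. It had 6.80, 6.27 and 5.93 FPKM at day 0, 0.64, 0.36 and 0.24 at day 4, and 1.14, 1.12 and 1.17 at day 8, with no overlap between days. It was 14.7-fold lower at day 4 than at day 0 (log2 fold change -3.87 ± 0.17, edgeR adjusted p = 8.3e-12) and then rose 2.86-fold (1.52 ± 0.21, adjusted p = 2.3e-05), leaving day 8 at 5.13-fold below day 0. Its usual partner Col8a2 had at most 3 counts in any sample. Col7a1, the anchoring fibril chain of skin, had 0.39, 0.35 and 0.48 FPKM at day 0, 0.47, 0.45 and 0.57 at day 4, and 0.18, 0.23 and 0.18 at day 8, equal to 33 to 105 expected counts. Days 0 and 4 overlapped and day 8 was below both, with a late log2 fold change of -1.30 ± 0.18 (edgeR adjusted p = 2.6e-05). Col10a1, the network collagen of cartilage growth zones, was not tested, and had 5, 10 and 21 counts in the day 8 samples and at most 4 in any other sample.

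Of the transmembrane chains, Col23a1 had 4.77, 4.72 and 5.10 FPKM at day 0, 3.33, 3.57 and 3.18 at day 4, and 6.63, 6.69 and 6.69 at day 8. It dipped at day 4 and ended above day 0, without overlap between days. Early and late log2 fold changes were -0.47 ± 0.07 and 1.03 ± 0.07 (edgeR adjusted p = 1.3e-05 and 2.9e-09), and the late one was 0.991 without day 4 replicate 3 and 0.987 with library size alone. Col17a1, a component of the anchoring complexes of epithelial cells, had 0.46, 0.68 and 0.49 FPKM at day 0, 0.17, 0.16 and 0.30 at day 4, and 0.21, 0.29 and 0.16 at day 8, with all day 0 samples above the others. Its early log2 fold change was -1.31 ± 0.27 and its whole-process change -1.19 ± 0.26 (edgeR adjusted p = 0.00039 and 0.00082), the latter -0.999 and just under 2-fold without day 8 replicate 3. Col28a1, a chain related to the beaded filament type, had 1.61, 1.85 and 1.73 FPKM at day 0, 0.65, 0.97 and 0.70 at day 4, and 0.80, 0.68 and 0.78 at day 8. Only its day 0 samples stood apart, at an early log2 fold change of -1.09 ± 0.15 (edgeR adjusted p = 8.6e-06), which was -0.98 without day 4 replicate 1. Col26a1 had 2 counts in each of 2 samples and 0 in the rest.

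The remaining 15 of the 44 chains did not enter the test. They were Col2a1, Col24a1, Col4a4, Col6a4, Col6a5, Col6a6, Col8a2, Col9a1, Col9a2, Col10a1, Col13a1, Col19a1, Col22a1, Col25a1 and Col26a1. The highest count among them was 21 (0.33 FPKM, Col10a1), and 7 of them had at most 3 counts in every sample. At these totals 3 counts correspond to between 0.147 and 0.165 CPM (counts scaled to the library total), a floor that covers counting error only, and most of these genes lay too near it for a change to be detectable. Without the filter on low counts, Col10a1 passed edgeR's test upwards from day 4 to day 8 and from day 0 to day 8 (adjusted p = 0.00946 and 0.00449). In the same fit Col2a1 passed downwards from day 0 to either later day (adjusted p = 0.0122 and 0.0139), as did Col22a1 and Col6a4 over the whole process (adjusted p = 0.00525 and 0.0425). Col2a1 had 10, 3 and 12 counts at day 0 and at most 3 later, and Col22a1 had 2, 2 and 9 counts at day 0, 1, 1 and 2 at day 4 and 0 in all day 8 samples. No fold is given for these genes at such counts.

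Chains of the same molecule, fibril or collagen type were compared as ratios of FPKM within each sample, which do not depend on library scaling, with an exact permutation test of the variance between days over all assignments of the 9 samples to days and Benjamini-Hochberg adjustment over the 7 ratios tested. Col1a1/Col1a2 was 0.840 ± 0.027, 0.882 ± 0.035 and 0.904 ± 0.005 on days 0, 4 and 8 (exact permutation p = 0.0571). The other 6 ratios gave p = 0.00357, the smallest value this exact permutation test can give (adjusted p = 0.00417). Col3a1/Col1a1 rose from 0.523 ± 0.068 to 0.626 ± 0.027 and 0.833 ± 0.022. Col5a1/Col5a2 went from 0.904 ± 0.030 at day 0 to 1.83 ± 0.07 at day 4 and 1.52 ± 0.04 at day 8. The balance of these type V chains thus moved from near parity to an excess of Col5a1.

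Within type IV, Col4a1/Col4a2 was 1.28 ± 0.02, 1.63 ± 0.03 and 1.49 ± 0.01 on the 3 days. Col4a5/Col4a1 fell from 0.214 ± 0.007 at day 0 to 0.0399 ± 0.0021 at day 4 and stood at 0.0766 ± 0.0050 at day 8. Within type VI, Col6a1/Col6a2 moved from 1.28 ± 0.01 to 0.988 ± 0.013 and 1.02 ± 0.01. Col6a3/Col6a1 moved from 0.338 ± 0.0023 to 0.508 ± 0.0242 and 0.433 ± 0.0111 (SD, n = 3). Although the 3 type VI genes rose together, they did so to unequal extents.

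**Figure D4:**
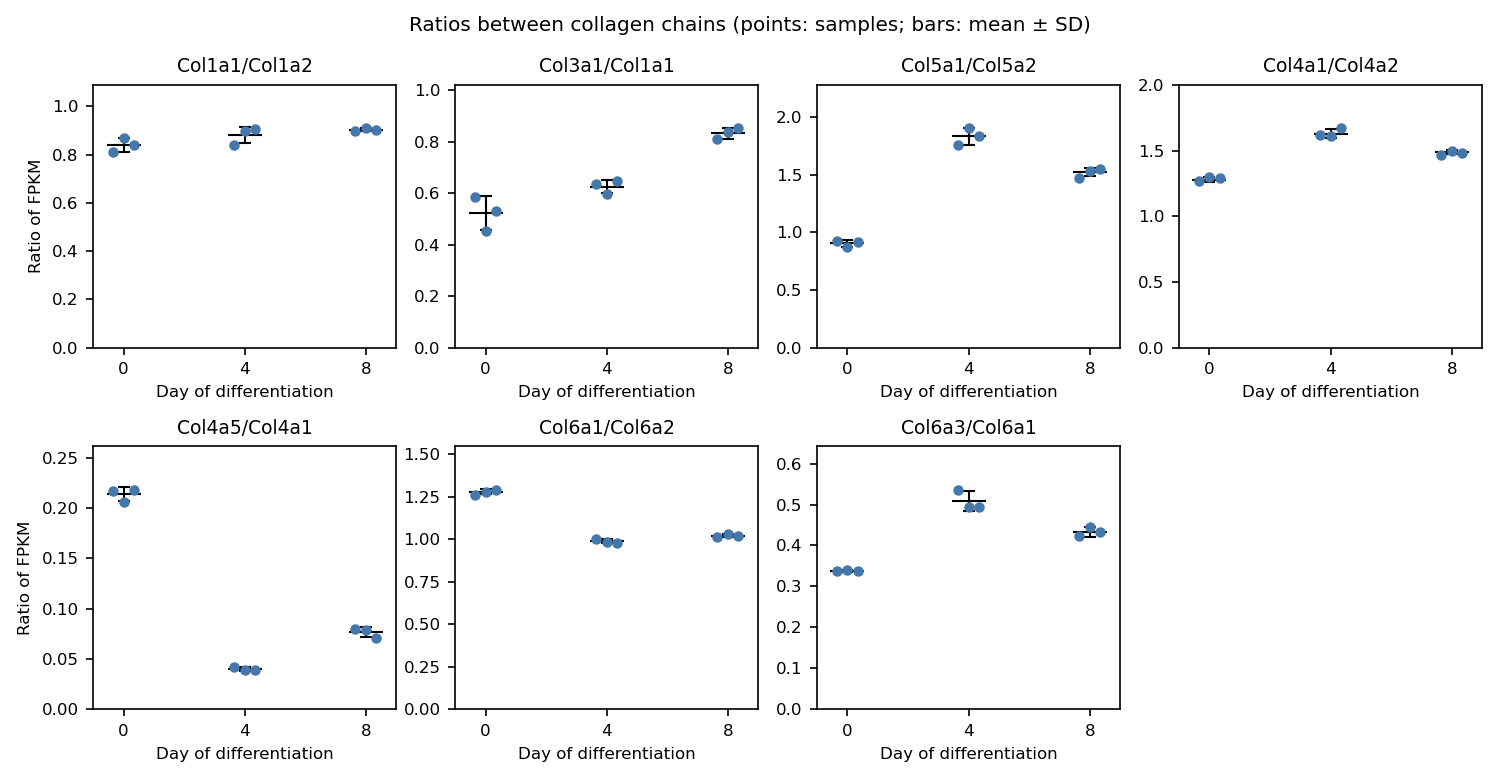
Ratios of FPKM between collagen chains. The ratio within a sample (y axis, no unit, from 0) is plotted against the day (x axis) for the 7 chain pairs tested; points are samples and bars show the mean ± SD of 3 samples. Col4a5/Col4a1 drops from 0.214 to 0.0399 at day 4, whereas Col1a1/Col1a2 stays between 0.81 and 0.91 in all samples.

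Several collagen genes lie side by side in the genome, which can be set beside their values. Col4a1 and Col4a2 on chromosome 8 point away from each other, with annotated starts 21 bases apart in GRCm38.p6, and their early log2 fold changes were 1.94 and 1.59. Col4a5 and Col4a6 on chromosome X are arranged in the same way with 1343 bases between starts, at -0.49 and -1.13. Col3a1 and Col5a2 are neighbours on chromosome 1 and had early log2 fold changes of 0.08 and -0.56 and late ones of 1.26 and 0.57. Col6a1 and Col6a2 are neighbours on chromosome 10, with early log2 fold changes of 1.04 and 1.42.

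By the mean over all 9 samples, the most abundant of the genes for folding and secreting collagen was Serpinh1, the collagen chaperone of the endoplasmic reticulum, at 594.1 ± 18.1, 501.2 ± 7.9 and 767.2 ± 15.98 FPKM on days 0, 4 and 8 (early and late log2 fold changes -0.18 ± 0.04 and 0.66 ± 0.04, edgeR adjusted p = 0.00188 and 6.9e-09). Of the 22 genes in this list, 21 were tested. With the 2-fold limit, 1 was upregulated (the lysyl hydroxylase Plod1) and 2 were downregulated (P4ha3 and P3h2) in the early phase, 2 were upregulated in the late phase (P4ha1 and Plod2), and 4 were upregulated and 2 downregulated over the whole process. Of all genes tested, the same rule called 9.77% up and 7.98% down in the early phase, 4.24% and 2.81% in the late phase and 10.3% and 7.7% over the whole process, to which the counts of this and the next lists can be compared. P4ha1, a prolyl hydroxylase subunit that stabilises the helix, had 34.2 ± 1.5, 36.8 ± 3.8 and 75.5 ± 5.0 FPKM, a late log2 fold change of 1.08 ± 0.07 (edgeR adjusted p = 3.3e-09). Its relative P4ha3 went from 14.3 ± 1.4 to 3.31 ± 0.81 and 6.12 ± 0.39 FPKM. Among the lysyl hydroxylases, Plod1 rose from 58.8 ± 3.8 FPKM at day 0 to 132.7 ± 8.9 at day 4 (log2 fold change 1.24 ± 0.07, edgeR adjusted p = 3e-10) and Plod2 from 7.61 ± 0.92 at day 4 to 15.8 ± 0.6 at day 8 (1.10 ± 0.08, adjusted p = 1.1e-08).

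Of 16 genes for procollagen processing and crosslinking, 13 were tested. In the early phase 2 were upregulated and 5 downregulated, in the late phase 1 was upregulated, and over the whole process 3 were upregulated and 3 downregulated, beside 7.98% of all genes downregulated early and 4.24% upregulated late. Lox, which crosslinks collagen and elastin, stood at 248.9 ± 17.2, 389.6 ± 15.9 and 241.9 ± 14 FPKM on the 3 days, with log2 fold changes of 0.69 ± 0.06 and -0.63 ± 0.06 in the early and late phases (edgeR adjusted p = 3e-08 and 2.8e-07). Loxl4 of the same family fell from 15.9 ± 0.7 to 4.09 ± 0.31 FPKM in the early phase (log2 fold change -1.89 ± 0.06, edgeR adjusted p = 3.1e-13). Pcolce, the enhancer of the procollagen C-proteinase, was the most abundant of these at 1003 ± 20, 795.7 ± 37.1 and 827.4 ± 35.2 FPKM. The transglutaminase Tgm2 rose from 0.27 ± 0.09 to 1.93 ± 0.16 and 7.04 ± 0.70 FPKM (log2 fold changes 2.89 ± 0.19 and 1.91 ± 0.12, edgeR adjusted p = 1.2e-09 and 1.9e-09). Adamts2, which removes the N-terminal propeptide of fibrillar collagens, rose from 12.01 ± 1.40 to 38.5 ± 1.2 FPKM in the early phase.

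Of 14 collagen receptor genes, 11 were tested and 3 were downregulated in the early phase, namely Itga11, Ddr2 and Adgrg6, beside 7.98% of all genes. Ddr2, a receptor tyrosine kinase for fibrillar collagen, went from 57.5 ± 1.3 to 26.2 ± 1.9 and 36.5 ± 0.7 FPKM (early log2 fold change -1.07 ± 0.05, edgeR adjusted p = 3.3e-11). Itga11, an integrin subunit for collagen I, went from 2.60 ± 0.20 FPKM at day 0 to 0.30 ± 0.05 at day 4 and 2.33 ± 0.18 at day 8, log2 fold changes of -3.06 ± 0.14 and 3.01 ± 0.14 (edgeR adjusted p = 1.3e-11 and 1e-10). Days 0 and 8 of Itga11 differed by less than the test could call (whole-process adjusted p = 0.68). In the late phase Itga10 was downregulated and Itga11 upregulated. Adgrg6, an adhesion receptor that binds type IV, went from 2.38 ± 0.22 to 0.39 ± 0.10 and 0.32 ± 0.01 FPKM. Itga1, whose integrin prefers type IV, stood at 1.94 ± 0.15, 2.08 ± 0.38 and 2.98 ± 0.17 FPKM.

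Of 15 genes for collagen breakdown and its inhibitors, 13 were tested. In the early phase 2 were upregulated (Fap and Timp4) and 2 downregulated (Mmp9 and Timp3), in the late phase 5 were upregulated, and over the whole process 4 were upregulated and 1 downregulated, beside 4.24% of all genes upregulated late and 10.3% over the whole process. The gelatinase Mmp2 was the most abundant protease of those named at 409.2 ± 43.4, 778.7 ± 112.8 and 698.5 ± 20.3 FPKM, an early log2 fold change of 0.99 ± 0.09 just under 2-fold (edgeR adjusted p = 5.7e-08). Its membrane-bound activator Mmp14 stood at 319.7 ± 32.7, 349.2 ± 38.3 and 318.1 ± 9.999 FPKM. Of the 4 inhibitor genes, Timp1 fell early (log2 fold change -0.66, edgeR adjusted p = 2.5e-07) and Timp2 had an early value of 0.08 (adjusted p = 0.346), while the other two had larger changes. Timp3, which binds to the matrix, went from 8.37 ± 0.52 to 0.38 ± 0.07 and 2.36 ± 0.29 FPKM (early log2 fold change -4.40 ± 0.13, edgeR adjusted p = 4.2e-14), and Timp4 from 0.34 ± 0.15 to 9.43 ± 1.35 and 21.2 ± 0.6 FPKM (4.85 ± 0.20, adjusted p = 2.4e-12). The collagenase Mmp13 rose from 1.67 ± 0.31 FPKM at day 4 to 6.13 ± 0.96 at day 8 (late log2 fold change 1.92 ± 0.16, edgeR adjusted p = 7.2e-08).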

How the data were processed

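Total RNA of 3T3-L1 cells was sequenced at day 0, 4 and 8 (3 samples per day). The authors filtered the reads, mapped them with HISAT/Bowtie2 and used RSEM for quantification. The submitters' processing notes name Bowtie2 and CASAVA 1.4, and the genome build and mapper versions are not given in the sources used here. The extraction text names a tissue that is not the cell line, and the kit and the sequencing platform named in the labels and methods differ. The authors deposited expected counts per gene (estimated counts, not normalized, 29.8% not whole) and FPKM, scaled by the authors to gene length and depth.

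Expected counts were rounded and tested in R 4.3.3 with edgeR 4.0.16 (filterByExpr, TMM factors between 0.954 and 1.05, quasi-likelihood test, 1 coefficient per day, all 9 samples). Benjamini-Hochberg adjustment ran over the 13154 genes that passed the filter. Calls needed an adjusted p under 0.05 and more than 2-fold. The standard error is the log2 fold change divided by the square root of F. The common biological coefficient of variation was 0.0538. No pair of samples agreed within counting noise.

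The members, classes, related lists and markers were chosen with earlier results of these data known. Values in every sample were given for the 2 chains with the highest mean FPKM in each class and, among chains of at least 1 FPKM, the one with the largest change in each comparison, and for 9 genes fixed by name and the 2 most changed genes of each related list in the early and late phases day means were given. Other chains were named where called, and Col4a5, Col5a1 and Col5a2 were also named with values although they were called in no comparison. Genes P3h2, Fap, Mmp9, Itga10, Adamts2 and the low chains were named to account for counts, and Timp1, Timp2 and single marker genes were named after their values were seen. The alternatives were RLE, upper-quartile and library-size scaling, other filters, DESeq2 1.42.0, edgeR's exact test and glmTreat, limma 3.58.1 on log2(FPKM + 1) and log2(FPKM + 0.1), separate models, a replicate block and leaving out each sample. Scripts were tested on simulated data. Sequences are from the RefSeq promoter table, which held 35 of the 44 chains. Shared 50-base stretches with other transcripts were checked, and no chain had over 5% of its stretches in another gene.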

Additional observations from a re-analysis of the deposited data

How the results depend on the processing

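The count of chains called moved with the test, the rule and the filter. The share of all genes called was counted only for the fit of the report. Whether these moves are particular to the chains was therefore not tested. Higher and lower calls below need an adjusted p under 0.05 and more than 2-fold unless stated. With limma on log2(FPKM + 1), 6 chains were called higher and 3 lower in the early phase, 2 higher and 0 lower in the late phase, and 3 lower over the whole process. With limma on log2(FPKM + 0.1), 3 were higher and 2 lower in the late phase. With edgeR's glmTreat against 2-fold, 3 were lower in the early phase, 2 higher and 0 lower in the late phase, and 2 lower over the whole process. Calls lower over the whole process, 6 in the report, numbered 9 with no filter on low counts, 4 with at least 10 counts in every sample and 8 with library size alone. At an unadjusted p under 0.05, late lower values numbered 1 with glmTreat and 11 with limma on log2(FPKM + 1), none of the latter beyond 2-fold. DESeq2 called 2 lower in the late phase. With an adjusted p under 0.05 and no fold limit, edgeR called 12 lower in the early phase, 13 higher and 12 lower in the late phase and 15 higher over the whole process. Leaving out 1 sample gave 8 to 12 higher and 6 to 7 lower calls in the early phase, 4 to 5 higher and 2 to 4 lower in the late phase (2 lower without day 4 replicate 2 or day 8 replicate 2), and 8 to 9 higher and 4 to 7 lower over the whole process. Library size alone moved the median of all genes by -0.11 (log2) over the whole process. Between samples of different days, the mean correlation of deviations was 0.06 for the same replicate number and -0.03 for different numbers. It was over 0.1 in 3 of 9 pairs with the same number. These low values do not settle whether replicate numbers pair the samples. The replicate block gave 10 higher and 7 lower calls in the early phase, 5 and 4 in the late phase, and 8 and 6 over the whole process.

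The collagen share was 1.44, 1.79 and 2.29% of summed FPKM at day 0, 4 and 8, and 1.20, 2.59 and 2.04% of counts without Col1a1, Col1a2 and Col3a1, which turned the late rise into a fall. All 7 chain ratios kept their side of the threshold in every alternative run on them. Of 40 called values of single chains, 0 changed direction in any alternative and 21 lost the call in at least 1. Uncalled values near 0 changed sign. On the log2 scale, leaving out 1 sample gave -0.039 to 0.171 for Col3a1 in the early comparison, and for the whole process -0.034 to 0.058 for Col5a2, -0.371 to 0.054 for Col11a2, -0.018 to 0.659 for Col14a1 and -0.091 to 0.191 for Col20a1. In the late phase it gave -0.102 to 0.468 for Col17a1 and -0.101 to 0.235 for Col28a1. The sample that turned the sign was day 0 replicate 2 for Col3a1, Col5a2 and Col14a1, day 0 replicate 1 for Col11a2, and any of 3 samples for Col17a1, Col20a1 and Col28a1. Upper-quartile factors gave -0.043 for Col5a2 and -0.037 for Col20a1. Library size alone gave -0.098 for Col5a2, -0.092 for Col20a1 and -0.035 for Col28a1. In the order log2(FPKM + 1) and log2(FPKM + 0.1), limma gave -0.096 and -0.097 for Col5a2, -0.048 and -0.076 for Col20a1 and -0.013 and -0.019 for Col28a1. Upper-quartile factors moved the median of all genes by -0.056 over the whole process. With library size alone, that median moved by -0.11 over the whole process and by -0.045 in the late phase. The cause of the sign changes was not tested. Col4a3, Col4a6 and Col14a1 had few counts, and the part of sequencing depth in their values was not tested.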
